A study of Mus musculus with 115 samples.

Results

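Of the prostate RNA-seq libraries of the series, 73 had under 1 TPM of Chga, the chromogranin A gene that marks neuroendocrine cells, and 42 had 1 TPM or more. The 73 were divided by their level of Nup35, a gene on mouse chromosome 2. TPM is a transcript level scaled by length, so that genes of a library can be compared, and by the sum over all genes. The 24 libraries with Nup35 under 1 TPM are called Nup35-low here (32.9% of the 73) and the 49 libraries at or over 1 TPM are called Nup35-high. Each library was taken to come from its own male (TRAMP x WSB/EiJ) F2 mouse that carried the SV40 T antigen transgene. In the TRAMP model the probasin promoter drives this oncogene in prostate epithelium, so every mouse on both sides carried it. The F2 mice descended from C57BL/6J TRAMP females and WSB/EiJ males, and were kept to a fixed adult age or to a humane endpoint. RNA was taken from bulk prostate tumor tissue, or from the ventral prostate where the organ was small, and so each level mixes all cell types of the piece. Fewer cells of a type and less RNA per cell cannot be told apart in such samples. The labels place all libraries in 1 group and give no genotype, and the Nup35 level was used as a stand-in for the F2 genotype near this gene. The sides were therefore chosen by a measured value, and the Nup35 and Chga levels below are a description of that choice.

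Nup35 encodes a nucleoporin of the inner ring of the nuclear pore complex, the channel through which proteins and RNA pass between nucleus and cytoplasm. Nup93, Nup155, Nup188 and Nup205 form the same ring, and Ndc1 is a membrane anchor of the pore. In an F2 intercross each mouse inherits long stretches of chromosome from either founder strain, so genes near each other on a chromosome tend to share a founder origin. Differences in RNA level that follow a nearby genotype are called cis effects, and those of genes elsewhere trans effects. Cwc22, a spliceosome protein gene on the same chromosome, lies in the R2d segment, which is present in more copies in WSB/EiJ than in C57BL/6J.

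Nup35 (ENSMUSG00000026999) lies on the plus strand of chromosome 2 from 80617236 to 80658906 (GRCm38) and its reference transcript has 9 exons. A gene on chromosome 7, Gm4353 (116082863 to 116084635, minus strand, annotated as protein coding), has a transcript of the same length, 1559 bases. Over 1547 aligned bases the transcripts were 99.6% identical and differed at 6 positions, of which 1 lay in the 975 coding bases of Nup35. The longest stretch without a difference was 730 bases. The coding difference is A467G, counted from 1 at the 5′ end of the Nup35 transcript, in exon 4. It is shown because it is the one coding base by which reads of the transcripts can be told apart in the reference, and the capital letter marks it. The Nup35 window runs across the junction of exon 4 and the next exon (chromosome 2, 80646445 to 80652864) and the Gm4353 window is at chr7:116083940-116083969.
Nup35: gctacaactcctgtAcctgggcaaagcatg
Gm4353: gctacaactcctgtGcctgggcaaagcatg

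In the Nup35-low libraries Nup35 ranged from 0.20 to 0.92 TPM with a median of 0.46 TPM. In the Nup35-high libraries it ranged from 1.59 to 7.64 TPM with a median of 2.91 TPM. None of the 73 libraries lay between 0.92 TPM (W4183) and 1.59 TPM (W4165), the values just inside and just outside the threshold. Gm4353 had the opposite order. It ranged from 1.69 to 8.72 TPM (median 4.22) in the Nup35-low libraries and from 0 to 11.88 TPM (median 2.02) in the Nup35-high libraries, where it was listed at 0 in 5. The sum of Nup35 and Gm4353 overlapped almost wholly, with 1.91 to 9.54 TPM (median 4.56) on the low side and 2.47 to 14.14 TPM (median 4.98) on the high side. The label "off" thus held for reads assigned to Nup35 and not for the summed signal of the near-identical transcripts. No test was made of these 2 genes or of their sum, because the sides were chosen by Nup35.

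The share of Nup35 in that sum fell in 3 separate ranges over the 73 and the 42 libraries together. It was 4.67% to 16.6% in 31 libraries, 40.3% to 74.8% in 71 and 97.4% to 100% in 13. All 24 Nup35-low libraries were in the lowest range (4.67% to 15.5%). Of the 49 Nup35-high libraries, 42 were in the middle range and 6 in the highest, while W1118 had 16%, with 2.26 TPM of Nup35 and 11.88 TPM of Gm4353. This library belongs to the Nup35-high side by the rule and to the lowest range by its share. Among the 42 libraries with Chga at or over 1 TPM, which were not used to form the sides, 6 were in the lowest range, 29 in the middle and 7 in the highest. Their Nup35 level was higher, with a median of 8.77 TPM, and a single one of them (W4360, 0.37 TPM) was under 1 TPM.

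**Figure D1:**
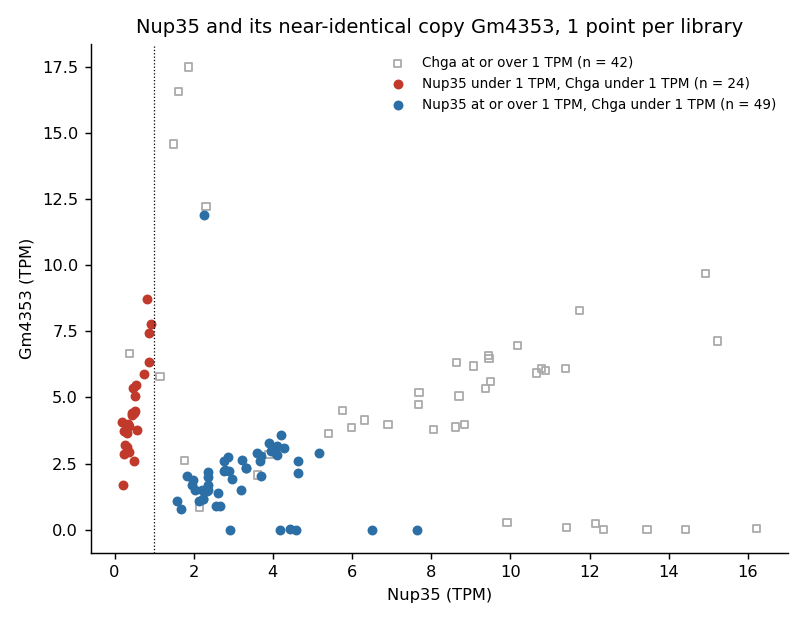
Nup35 (x axis, TPM) against Gm4353 (y axis, TPM), 1 point per library. The 24 Nup35-low libraries (red) lie left of the dotted line at 1 TPM with 1.69 to 8.72 TPM of Gm4353, and the 49 Nup35-high libraries (blue) form a middle band and a row near 0 TPM of Gm4353, with W1118 apart at 11.88 TPM. Libraries with Chga at or over 1 TPM are grey squares.

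The libraries W5000, W5001, W5002, W5004 and W5005 stood apart by their level of Cwc22, a gene that is among those called below. Their Nup35 share was 66.1% to 74.8%, in the middle range, but Cwc22 was 4.69 to 7.10 TPM in them, against 19.98 to 282.47 TPM in the other 38 Chga-low libraries of that range. W5003 had 41.86 TPM. The labels name no batch for them. W5000, W5002, W5004 and W5005 are Nup35-high, so the results are given with and without them below. Leaving them out was chosen after the data were seen. The 20 most abundant genes took 56.1% to 79.4% of all TPM on the low side (median 67.55%) and 51.6% to 81.8% on the high side (median 66.9%), and the closest pair of libraries had r = 0.974 across genes on the log2 scale. Read depth is unknown from TPM.

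The comparison asked which other genes differed between the sides, and whether they lay near Nup35. For each gene with a mean of at least 1 TPM over the 73 libraries, log2(TPM + 1) was compared between the sides with limma, and a gene was called at a Benjamini-Hochberg adjusted p under 0.05 over all 13361 genes tested. A difference on this scale understates the change of genes with few TPM. Nup35, Chga, Gm4353 and Dusp19, which overlaps Nup35 by 131 exon bases, were not tested. Dusp19, a phosphatase gene, had a median of 4.07 TPM on the low side and 4.14 TPM on the high side, with overlapping ranges. In all 19 genes were called (0.142% of those tested), 16 higher and 3 lower in the Nup35-low libraries. Of these, 13 were on chromosome 2, where 1.21% of 1078 tested genes were called, and 6 were elsewhere, 0.0488% of 12283. After rescaling without the 20 largest genes 36 were called, 24 higher and 12 lower. The median difference over all genes was -0.026 on the log2 scale. The number of calls rests on where Nup35 is divided. At a threshold of 0.5 TPM (14 against 59 libraries) 5 genes were called, 0 higher and 5 lower, and at 2 TPM (29 against 44) 1 was, lower on the low side. At each of these thresholds 1 of the 19 genes was still called. The other 18 kept their direction without passing, for example Gm13698 at 0.55 (adjusted p = 0.106), Cwc22 at 0.96 (adjusted p = 0.120) and Tfpi at 0.62 (adjusted p = 0.0679) at 0.5 TPM. With libraries between 0.5 and 2 TPM left out (14 against 44), 232 genes were called, 3 higher and 229 lower, 4 of them among the 19.

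Called genes of chromosome 2 were gathered near Nup35. Within 10 Mb of its start, 9 of 79 tested genes were called (11.4%), against 4 of 999 farther away (0.400%). Of these 9, 6 are identical transcripts, and with those counted once 4 of 74 were called (5.41%). These 4 are the identical transcripts, Cwc22, Tfpi and Ube2l6. The identical transcripts are copies of Cwc22 (96.9% identical to it), and whether both are separate measurements was not tested. All 9 started between 1 and 5 Mb from Nup35, where 9 of 39 tested genes were called (23.1%), or 4 of 34 (11.8%) with the identical transcripts counted once. None of the 6 tested genes within 1 Mb was called, and 1 of them had an unadjusted p under 0.05. The share of genes with an unadjusted p under 0.05 was 33.3% at 1 to 5 Mb, 14.7% at 5 to 10 Mb, 7.59% at 10 to 20 Mb, 12.8% at 20 to 40 Mb and 8.34% beyond 40 Mb. The share was 5.37% over the other chromosomes together, and no other chromosome exceeded 6.43%. These shares describe the comparison and carry no test, since neighbouring genes and copies of a gene are not independent.

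**Figure D2:**
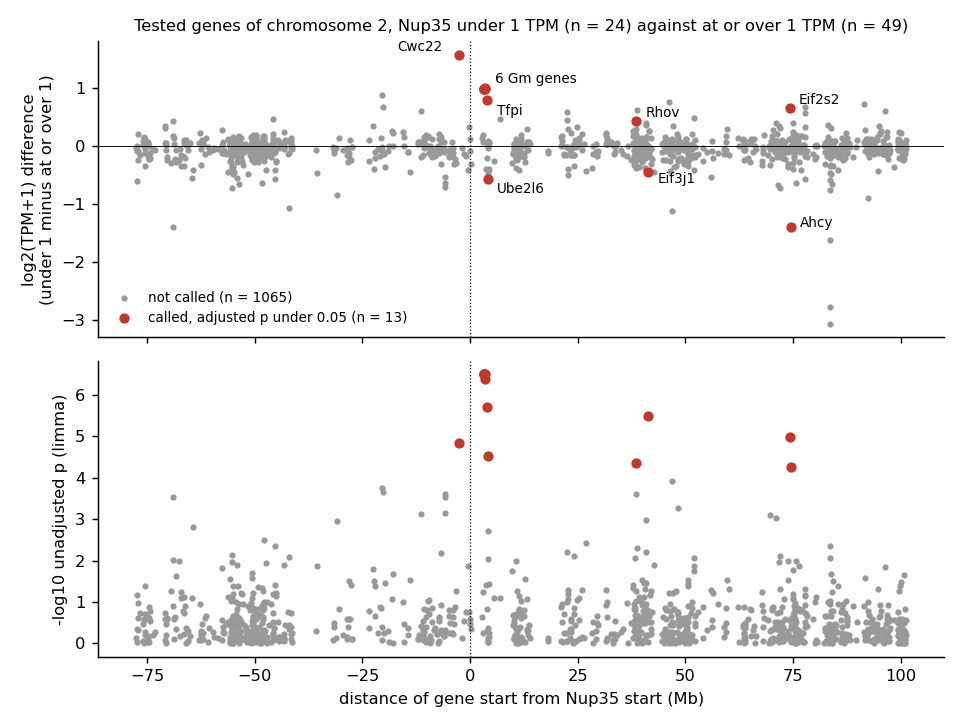
Difference in log2(TPM + 1), Nup35-low minus Nup35-high (upper panel), and -log10 of the unadjusted limma p (lower panel) of the 1078 tested genes of chromosome 2, by the distance of the gene start from the Nup35 start in Mb. The 13 called genes (red) comprise 9 between 2.67 Mb before and 4.18 Mb after Nup35 and 4 between 38.65 and 74.46 Mb after it.

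**Figure D3:**
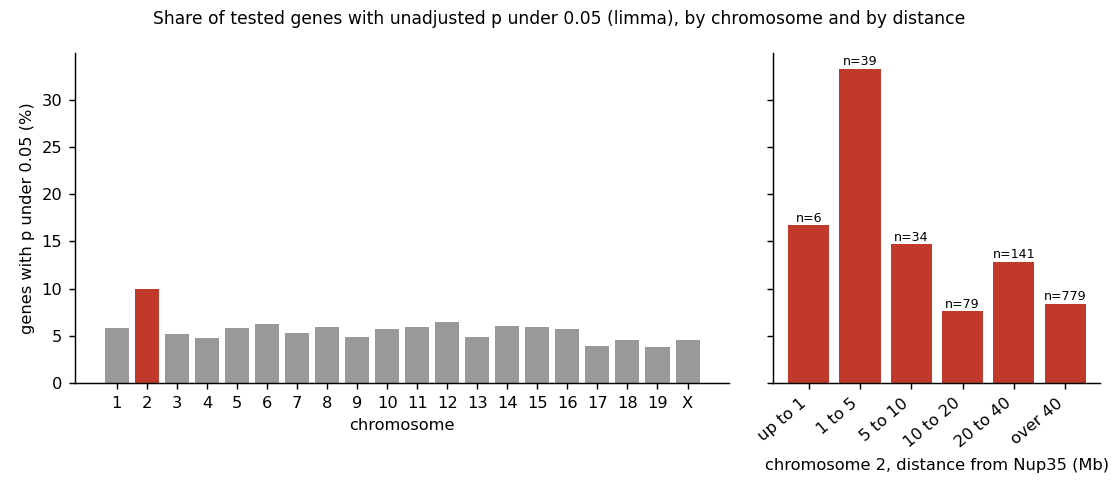
Percentage of tested genes with an unadjusted limma p under 0.05, by chromosome (left) and by distance from Nup35 on chromosome 2 (right, with the number of genes over each bar). Chromosome 2 has the tallest bar on the left, and its genes at 1 to 5 Mb reached 33.3%.

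The smallest p-values belonged to a cluster of 6 predicted genes annotated 3.34 to 3.37 Mb from Nup35, Gm13698, Gm13693, Gm13696, Gm13694, Gm13697 and Gm13691 (83955693 to 83993045). Their transcripts of 2493 bases were 100% identical to each other in the reference, so their values are not 6 separate measurements. Gm13691 and Gm13698 had equal values in most libraries but not in all, for example 0.01 and 0.21 TPM in W5002. Gm13698 ranged from 1.60 to 8.01 TPM (median 4.55) in the Nup35-low libraries and from 0 to 8.64 TPM (median 1.99) in the Nup35-high libraries. In 23 of 24 Nup35-low libraries it was above the Nup35-high median, and 16 Nup35-high libraries lay below the lowest Nup35-low one. The difference was 0.98 ± 0.17 on the log2 scale (SE, adjusted p = 0.000857, limma), which is 1.97-fold in TPM + 1. It was 1.65 with a pseudocount of 0.1 (adjusted p = 0.0202), and 0.87 without W5000 to W5005 (adjusted p = 0.00205).

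These predicted genes are copies of Cwc22, which starts 2.67 Mb before Nup35 (77881159 to 77946375, minus strand) and whose product brings a helicase of the exon junction complex to the spliceosome. The aligned 2514 bases were 96.9% identical, and all 39 substitutions lay in the Cwc22 coding sequence. A window of Cwc22 exon 4 (chr2:77932709-77932738, minus strand) and the same window of Gm13698 (chr2:83955748-83955777, plus strand) show 1 of them, C457T from the 5′ end of the Cwc22 transcript, in capitals.
Cwc22: cccacagttcatacCgccggagctcctccc
Gm13698: cccacagttcatacTgccggagctcctccc

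Cwc22 ranged from 70.91 to 378.96 TPM (median 207.74) in the Nup35-low libraries and from 4.69 to 370.58 TPM (median 90.71) in the Nup35-high libraries. The highest Nup35-high value, 370.58 TPM, was that of W1118. The difference was 1.56 ± 0.34 (adjusted p = 0.0156), 2.96-fold in TPM + 1, and 1.27 without W5000 to W5005 (adjusted p = 0.0244). By Nup35 share, the 25 Chga-low libraries of the lowest range had a median of 208.68 TPM, the 38 of the middle range other than W5000 to W5005 had 109.45 TPM, and the 6 of the highest range had 7.42 to 11.76 TPM. The same order was seen in the Chga-high libraries, with medians of 533.1 (n = 6), 273.92 (n = 27) and 13.27 TPM (n = 7). The highest range, at most 18.45 TPM, lay below every value of the other ranges in both sets, apart from W5000 to W5005. Gm13691 was 0 to 0.02 TPM in the 6 Chga-low libraries of the highest range and 0.49 to 8.64 TPM in the 63 others that are not W5000 to W5005.

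Tfpi, whose product inhibits the tissue factor pathway that starts blood clotting, starts 3.86 Mb from Nup35 (84432855 to 84476775) and is one of the genes the study listed for this region. The study chose its listed genes, Nup35 among them, from RNA-seq of this same series, so Tfpi is not independent evidence here. It ranged from 8.79 to 51.18 TPM (median 21.14) in the Nup35-low libraries and from 1.57 to 30.19 TPM (median 12.89) in the Nup35-high libraries. In 22 of 24 Nup35-low libraries it was above the Nup35-high median, and the sides overlapped. The difference was 0.78 ± 0.15 (adjusted p = 0.00384), 1.72-fold in TPM + 1, and 0.65 with the first 3 principal components of the other chromosomes as covariates (adjusted p = 0.000107). Its medians also followed the Nup35 share, with 20.92 TPM in the lowest range, 13.7 TPM in the middle other than W5000 to W5005 and 5.84 TPM in the highest. In the Chga-high libraries, divided in the same way, they were 6.08, 2.53 and 1.07 TPM, with ranges that overlapped widely.

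Ube2l6, a conjugating enzyme for the interferon-induced modifier ISG15, starts 4.18 Mb from Nup35 and was the only called gene within 10 Mb that was lower in the Nup35-low libraries. It ranged from 0.90 to 5.05 TPM (median 1.96) there and from 1.21 to 9.35 TPM (median 3.53) on the high side. The difference was -0.57 ± 0.13 (adjusted p = 0.0239). With the sides set by the Nup35 share it was -0.51 (adjusted p = 0.143). Leukocyte marker genes were also lower on the low side without passing the test, as given below, and their part in the Ube2l6 value was not tested. With the 3 components as covariates the Ube2l6 difference was -0.40 (adjusted p = 2.39e-05), and whether the components stand for leukocyte content was not tested.

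Of the other genes the study listed for this region, Dnajc10, an endoplasmic reticulum disulfide reductase gene 0.30 Mb before Nup35, was the most abundant. It ranged from 118.04 to 633.12 TPM (median 409.64) on the low side and from 8 to 684.08 TPM (median 354.09) on the high side, a difference of 0.32 ± 0.23 (adjusted p = 0.862). BB218582, a noncoding transcript 26.03 Mb away, had 0.21 ± 0.10 (adjusted p = 0.845). The study chose these genes by SNP genotype, with age and tumor burden as covariates, and by correlation with tumor burden. The division used here is a different measure in part of the libraries, so the results cannot be set directly against the study's. The pseudogene Gm13688 (80602733 to 80603340) was below the filter. It was listed at 0 in 19 of 24 Nup35-low libraries, with at most 0.06 TPM, and at 0 in 24 of 49 Nup35-high libraries, with at most 0.32 TPM. Gm9821 (91945703 to 91947655) was below the filter too, with medians of 0.47 and 0.71 TPM and overlapping ranges. The remaining tested genes within 1 Mb did not pass either. Nckap1, of the WAVE actin regulatory complex and 0.04 Mb from Nup35, had medians of 36.38 and 35.22 TPM and a difference of 0.12 ± 0.11 (adjusted p = 0.895). Pde1a, a calmodulin-dependent phosphodiesterase gene, had -0.42 ± 0.17 (unadjusted p = 0.0138, adjusted p = 0.845). Itprid2 had -0.18 ± 0.13 and the pseudogenes Gm13689 and Gm4735 had -0.10 ± 0.10 and -0.32 ± 0.42 (adjusted p = 0.859, 0.923 and 0.946).

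**Figure D4:**
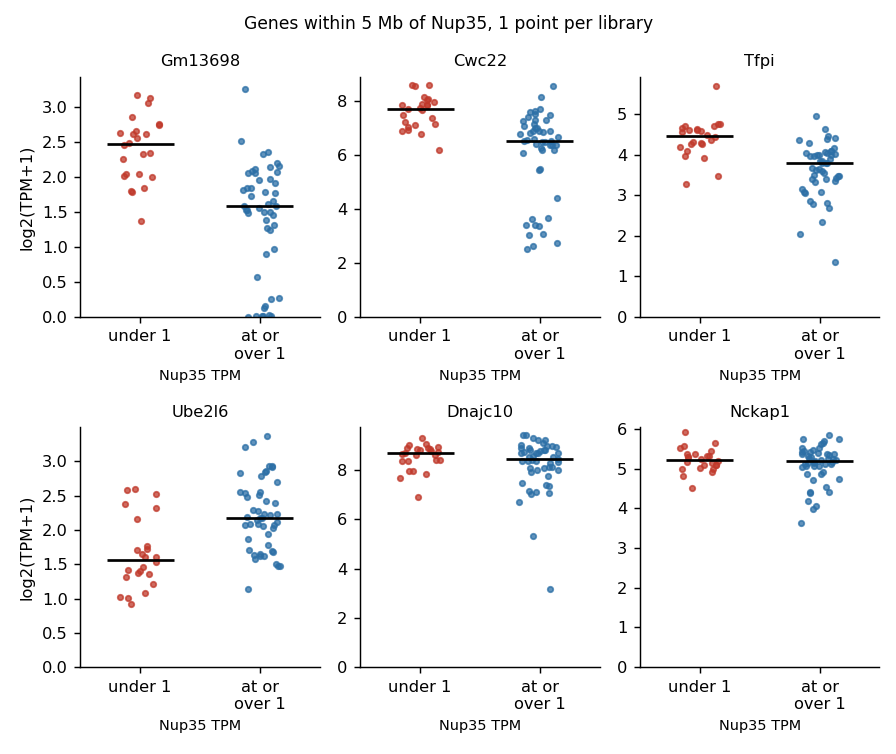
log2(TPM + 1) of 6 genes within 5 Mb of Nup35 in the 24 Nup35-low (red) and 49 Nup35-high libraries (blue), 1 point per library, with the median as a bar. Gm13698, Cwc22 and Tfpi are higher on the low side, Ube2l6 is lower, and Dnajc10 and Nckap1 did not pass the test. Cwc22 has a separate lower group on the high side.

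The 4 called genes farther along chromosome 2 lay 38.65 to 74.46 Mb from Nup35. Eif3j1, which encodes a loosely bound subunit of translation initiation factor eIF3, ranged from 2.31 to 5.69 TPM (median 3.17) in the Nup35-low libraries and from 2.28 to 11.02 TPM (median 4.74) in the Nup35-high libraries. The difference was -0.45 ± 0.09 (adjusted p = 0.00492). A near-identical copy on chromosome 18, Eif3j2, 99.4% identical over its 2379 bases, was called in the opposite direction. It ranged from 11.23 to 24.30 TPM (median 17.31) on the low side and from 2.48 to 21.21 TPM (median 12.38) on the high side, a difference of 0.54 ± 0.12 (adjusted p = 0.0167). Eif3j1 made up a median of 14.9% of the sum on the low side and 27.3% on the high side. The sum of both, which was mostly Eif3j2, had medians of 20.4 and 17.43 TPM. It was higher on the low side by 0.28 on the log2 scale (SD 0.23 and 0.42, n = 24 and 49, 2-sided permutation test, p = 0.00225, adjusted p = 0.0045 over 4 sums). Gm3650, which adjoins Eif3j2 on chromosome 18, was called as well, at 0.71 ± 0.15 (adjusted p = 0.0156). Its transcript of 747 bases was 99.9% identical to Spg11, a lysosomal protein gene 41.50 Mb from Nup35 and next to Eif3j1. The sum of Spg11 and Gm3650 differed by 0.08 (permutation p = 0.42, adjusted p = 0.42). Each of the 4 sums holds a gene called in these same libraries, and the adjustment does not account for that choice.

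Eif2s2, the beta subunit gene of translation initiation factor eIF2, starts 74.28 Mb from Nup35. It ranged from 34.99 to 84.73 TPM (median 59.75) on the low side and from 13.38 to 90.34 TPM (median 37.87) on the high side, 0.65 ± 0.14 higher on the low side (adjusted p = 0.0137), and 21 Nup35-high libraries lay below the lowest Nup35-low one. Its chromosome 8 pseudogene Gm9892 was low, at most 2.88 TPM in the 73 libraries. The sum of Eif2s2 and Gm9892 differed by 0.64 (permutation p = 3e-05, adjusted p = 0.00012). This sum is nearly all Eif2s2, so it repeats the comparison of that gene. Rhov, 38.65 Mb away, differed by 0.43 ± 0.10 (adjusted p = 0.0336), with medians of 2.62 and 1.94 TPM. It was called under 5 of 14 alternatives, and did not pass without W5000 to W5005 (0.38, adjusted p = 0.115), with a pseudocount of 0.1 (adjusted p = 0.0657), with no filter on low values (adjusted p = 0.0616) or with rank-based scores (adjusted p = 0.0623).

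Ahcy, the hydrolase of S-adenosylhomocysteine in the methylation cycle, starts 74.46 Mb from Nup35. It ranged from 0.78 to 25.36 TPM (median 2.21) in the Nup35-low libraries and from 0.25 to 43.94 TPM (median 13.16) in the Nup35-high libraries. The difference was -1.39 ± 0.33 (adjusted p = 0.0396), and it did not pass with the sides set by Nup35 share (-1.25, adjusted p = 0.158), a pseudocount of 0.1 (-1.63, adjusted p = 0.108), no filter on low values (adjusted p = 0.0951) or rank-based scores (adjusted p = 0.370). It was called under 8 of 15 alternatives. Gm4737, a copy of Ahcy on chromosome 16 (46152985 to 46155077, minus strand) that was 99.7% identical over 2083 bases, had the reverse order. It ranged from 11.62 to 51.02 TPM (median 25.86) on the low side and from 0 to 52.66 TPM (median 13.4) on the high side, 1.79 ± 0.44 higher on the low side (adjusted p = 0.0809). Gm4737 was at most 0.11 TPM in 17 Nup35-high libraries and at least 6.74 TPM in the other 32, and no Nup35-low library was under 1 TPM. In those 17 libraries Ahcy was 11.44 to 43.94 TPM (median 23.03). Of the 6 Nup35-high libraries in the highest range of Nup35 share, 4 were among the 17. The sum of Ahcy and Gm4737 had medians of 29.63 and 27.89 TPM and differed by 0.17 (SD 0.49 and 0.74, permutation p = 0.326, adjusted p = 0.42). The transcripts differed at 6 aligned positions, 4 of them coding. One is shown in capitals, G579A from the 5′ end of the Ahcy transcript, in Ahcy exon 5 (chr2:155064883-155064912, minus strand) and in Gm4737 (chr16:46154524-46154553, minus strand).
Ahcy: tctgaggagaccacGactggggtccacaac
Gm4737: tctgaggagaccacAactggggtccacaac

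**Figure D5:**
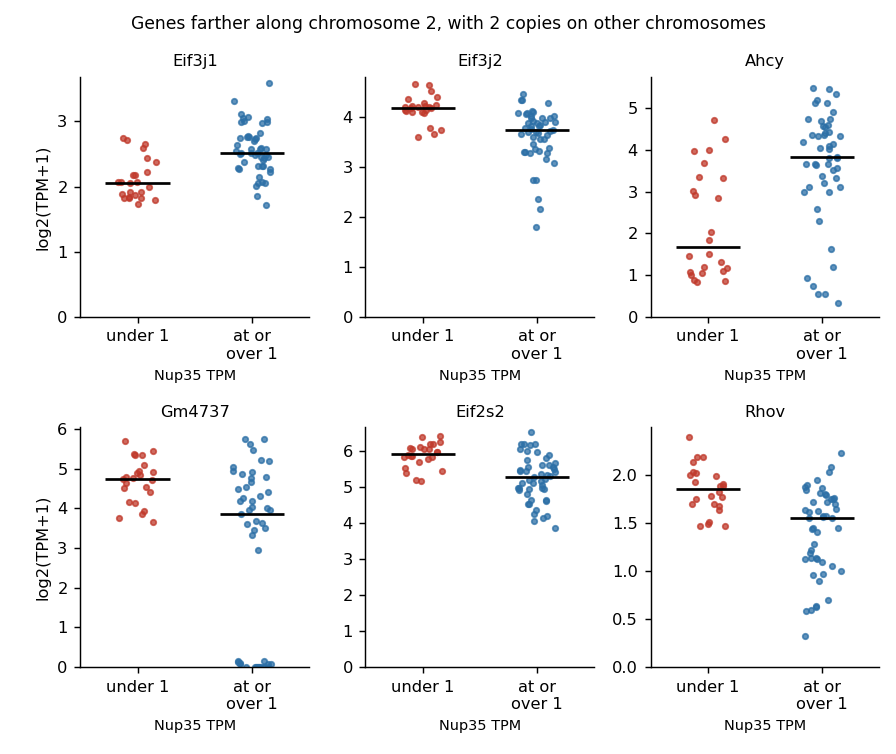
log2(TPM + 1) of Eif3j1, Ahcy, Eif2s2 and Rhov on chromosome 2, and of Eif3j2 (chromosome 18) and Gm4737 (chromosome 16), near-identical copies of Eif3j1 and Ahcy, in the 24 Nup35-low (red) and 49 Nup35-high libraries (blue), 1 point per library, with the median as a bar. Each copy has the opposite order of its chromosome 2 gene, and Gm4737 is near 0 in 17 Nup35-high libraries.

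All 6 called genes outside chromosome 2 were higher in the Nup35-low libraries. Eif3j2 and Gm3650 have the chromosome 2 copies given above. At 95% identity over at least 50% of the shorter transcript, 609 of 12234 genes outside chromosome 2 in the level range tested (4.98%) had a copy on chromosome 2. The remaining 4 had none among annotated transcripts, and no alignment with Cwc22 transcripts. Introns of chromosome 2 genes and sequence outside the annotation were not searched, so shared sequence there was not tested. The sense-intronic noncoding RNA Gm42764 on chromosome 5 ranged from 34.54 to 193.41 TPM (median 82.60) on the low side and from 1.95 to 153.04 TPM (median 38.84) on the high side, a difference of 1.36 ± 0.30 (adjusted p = 0.0156). The long noncoding RNAs Gm11851 and Gm11261 are both on chromosome 4, and their transcripts were 94.2% identical over 707 aligned bases. They differed by 0.86 ± 0.17 and 0.88 ± 0.19 (adjusted p = 0.00472 and 0.0156). The X-linked pseudogene Gm5646 differed by 0.90 ± 0.20 (adjusted p = 0.0180), and by 0.86 without W5000 to W5005 (adjusted p = 0.0503). In the 6 Chga-low libraries of the highest Nup35 share these 4 genes had their lowest medians, 3.91 TPM for Gm42764, 1.58 for Gm11851, 2.57 for Gm11261 and 1.41 for Gm5646. In the middle range other than W5000 to W5005 the medians were 44.59, 5.19, 9.73 and 7.03 TPM, and in the lowest range 87.79, 9.61, 17.95 and 11.52 TPM.

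The libraries with Chga at or over 1 TPM were not used to choose the sides. Divided by Nup35 at 1 TPM, 1 library stood against 41. This fit takes the lone library W4360 to vary like the others, called 10 of 15656 genes (0.0639%), and says nothing of the sides beyond that library. In it 16 of the 18 tested genes of the 19 had the sign of the Chga-low libraries. Divided by Nup35 share under 25%, a division chosen after the data were seen, 6 libraries stood against 36. No gene was called by limma at an adjusted p under 0.05 (457 at an unadjusted p under 0.05). All 18 of the 19 genes that were tested there had the direction of the Chga-low libraries. These 18 include the identical transcripts with Cwc22, and the near-identical Eif3j1 and Eif3j2, so they are not 18 separate measurements. How many of all tested genes kept their direction was not counted. There Gm13698 differed by 1.47 ± 0.47, Cwc22 by 1.89 ± 0.78, Tfpi by 1.19 ± 0.47, Eif3j1 by -0.30 ± 0.16 and Eif3j2 by 0.48 ± 0.28, each with an adjusted p = 0.969. In the Chga-low libraries the division by share (25 against 48) moved only W1118 to the other side. It also rests on the Nup35 level, so it is not a separate test. It called 18 genes (0.135%), 16 of them among the 19. It added Gm4737 (1.89 ± 0.43, adjusted p = 0.0284) and the X-linked pseudogene Gm14681 (0.86 ± 0.19, adjusted p = 0.0226), and Ube2l6, Ahcy and Rhov did not pass. The test of the difference between Chga-high and Chga-low libraries in the division at 1 TPM rests on the same lone library, and called 65 of 14620 genes (0.445%). For the division by share it called none (656 at an unadjusted p under 0.05).

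With the first 3 principal components of genes on other chromosomes as covariates, 37 genes were called (0.277%), including all 19. Of the 37, 26 were on chromosome 2, which is 2.41% of its tested genes, against 0.0896% of those elsewhere. Of these 26, 10 lay 1 to 5 Mb from Nup35 (39 genes tested), 6 at 20 to 40 Mb (141 tested) and 10 beyond 40 Mb (779 tested). Among those added, Selenoh, a selenoprotein gene 4.05 Mb from Nup35, had -0.30 ± 0.05 (adjusted p = 7.28e-05) and Dnajc17, a J-domain cochaperone gene 38.59 Mb away, had -0.41 ± 0.07 (adjusted p = 0.000107). Bub1b, a spindle checkpoint kinase gene 37.98 Mb away, had -0.37 ± 0.08 (adjusted p = 0.00819), and Hypk, 40.84 Mb away, had 0.35 ± 0.07 (adjusted p = 0.00212). These 4 were chosen for mention after their values were seen.

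Of 30 listed nuclear pore genes, 27 were in the table and 26 were tested, and none was called. Their median difference was -0.054 (range -0.146 to 0.113), against -0.026 over all genes, and none had an unadjusted p under 0.05. Among the partners of Nup35 in the inner ring, Nup93 differed by -0.11 ± 0.14, Nup155 by -0.08 ± 0.14, Nup205 by -0.06 ± 0.14 and Nup188, itself on chromosome 2, by -0.13 ± 0.11. The anchor Ndc1 differed by -0.11 ± 0.13. The adjusted p was 0.885 to 0.967 for these 5. Their values moved with the Nup35 threshold: at 0.5 TPM Nup93 was -0.46 and Nup155 -0.42 (adjusted p = 0.0724 and 0.0842), and with 0.5 to 2 TPM left out -0.47 and -0.42 (adjusted p = 0.0602 and 0.0784). Summed over the 27 genes, the level was 145 to 437 TPM (median 255) on the low side and 119 to 582 TPM (median 267) on the high side.

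No gene of the cell type lists was called. The prostate luminal list (10 of 10 tested) had summed medians of 11100 TPM on the low side and 9120 TPM on the high side. The sums ranged from 1780 to 15700 TPM and from 321 to 153000 TPM. Its genes went both ways, with 6 of 10 higher on the low side and differences from -1.015 to 0.657. Genes of prostate secretory epithelium were thus present on both sides. Of the 10 neuroendocrine genes 1 was high enough to be tested, and their sum was at most 15.4 TPM. These 10 include Chga, by which the libraries were chosen, so the low levels of this list partly follow from that choice. The tested gene was lower on the low side (-0.339, adjusted p = 0.845, limma), and the summed medians were 1.64 and 3.15 TPM. All 7 seminal vesicle genes were lower in the Nup35-low libraries, with a median difference of -1.63, and 3 had an unadjusted p under 0.05, as had 768 of all 13361 genes (5.75%). Their sum had medians of 110 and 2920 TPM and ranges of 7.5 to 171000 and 1.92 to 173000 TPM. Most of these genes lie on chromosome 2, over 80 Mb from Nup35. All 4 endothelial genes (median -0.41, 3 with an unadjusted p under 0.05) were lower as well, with summed medians of 9.41 against 13.3 TPM. So were all 7 tested leukocyte genes (median -0.26, none with an unadjusted p under 0.05), with summed medians of 100 against 145 TPM. The 10 proliferation genes were all lower too, none with an unadjusted p under 0.05, with a median of -0.12 and summed medians of 42.8 and 50.2 TPM. The smooth muscle and fibroblast list had a median of -0.16 and sums of 1430 and 1490 TPM, and the 4 basal genes had -0.11. The part of these lists in the called genes was not tested. All 19 were also called with the 3 components as covariates, as stated above. How far these components stand for the listed cell types was not tested.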

How the data were processed

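Bulk RNA-seq of prostate samples (73 with Chga under 1 TPM, 42 with more) was analysed from 1 deposited table of TPM values. The authors depleted ribosomal RNA before sequencing. They aligned trimmed reads by Bowtie2 against transcripts of a diploid GRCm38 genome carrying C57BL/6 and WSB variants, and RSEM gave the TPM. The submitters' processing notes name CASAVA 1.8.2, Bowtie2 2.2.5 and RSEM 1.2.20, and the gene annotation is not given in the sources used here. RSEM divides reads that map equally well between transcripts, so levels of near-identical genes depend on that division, and TPM carry no depth.

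Gene IDs were matched to GENCODE M21 (GRCm38), 45136 of 45699. Distances are between gene starts. Tests used limma 3.58.1 (R 4.3.3) on log2(TPM + 1) with an intensity trend, and transcripts were aligned with BLAST 2.17.0. Sums of pairs were compared with 100000 random permutations. The scripts were tested on simulated data. The members, lists and tests were chosen with earlier results of these data known. Genes named were Nup35 and Chga, the study's candidates, tested genes within 1 Mb, up to 20 called genes of chromosome 2 and 10 elsewhere by p, called list members and 5 Nup35 partners, and additions are marked. Each title is taken as 1 mouse, and the labels give no replicate, batch, age or genotype. The study reports RNA-seq of fewer F2 prostates than the series has libraries, so 1 mouse per library is an assumption.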

Additional observations from a re-analysis of the deposited data

How the results depend on the processing

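The counts of called genes are given as all chromosomes, chromosome 2, within 10 Mb of Nup35 and other chromosomes, and were 19, 13, 9 and 6. With a mean of at least 5 TPM required, 9, 4 and 2 were called in the first 3, from 7982 tested genes. Median-of-ratios scaling gave 42, 27 and 15 (all, chromosome 2, others), rescaling without the 20 largest genes gave 36, 26 and 10, and the 3 principal components gave 37, 26 and 11. A Nup35 threshold of 0.5 TPM gave 5, 3, 1 and 2, and one of 2 TPM gave 1, 1, 1 and 0 (Ube2l6). Leaving out libraries with Nup35 between 0.5 and 2 TPM (14 against 44) gave 232, 35, 4 and 197, of which 229 were lower on the low side. A Chga threshold of 0.1 TPM left 1 library against 6 and gave 11, 0, 0 and 11, and Ube2l6 reversed there, at 0.60 (adjusted p = 1). No other gene called in the comparison reversed under any alternative. The cause of these shifts was not tested. Under a pseudocount of 0.1, no filter on low values, a Chga threshold of 10 TPM, rank-based scores, the share of the 20 largest genes as a covariate, and without W5000 to W5005, each of these counts stayed within 1.5 times, with 14 to 28 genes in all. All 19 genes were called under both rescalings, under the 10 TPM threshold for Chga and under both covariate fits. A pseudocount of 0.1 lost Rhov, Ahcy and Gm3650, no filter lost Ube2l6, Rhov and Ahcy, rank-based scores lost Eif2s2, Ube2l6, Rhov, Ahcy and Gm5646, and leaving out W5000 to W5005 lost Rhov and Gm5646. No paired analysis was possible because the labels give 1 group and no replicate numbers. Depth is unknown from TPM, which limits what can be said of genes near 0.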
